A study of Homo sapiens with 6 samples.

Results

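SPNS2, the transporter that carries sphingosine 1-phosphate (S1P) out of the cell, was examined together with the genes that make, break down and sense this lipid in ARPE-19 cells, an established human line that originates in retinal pigment epithelium (RPE). The list holds 10 genes, which are the transporters SPNS2 and SPNS1, the kinases SPHK1 and SPHK2, the breakdown enzymes SGPL1, SGPP1 and PLPP3, and the receptors S1PR1, S1PR2 and S1PR3. It was chosen by the lower level of SPNS2 in POLDIP2 KO than in WT libraries and filled with genes of the same pathway, so the difference of SPNS2 between the lines is given as a description and is not tested here. SGPP1 was not analysed here, and the other 9 genes were read among the 37902 genes of the deposited values. All 9 passed the limit on low values, a mean of at least 10 normalised counts over the 6 libraries, which left 14684 genes.

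S1P is made inside the cell when a sphingosine kinase adds a phosphate to sphingosine, a product of ceramide breakdown. It is removed by a phosphatase, which gives sphingosine back, or by the lyase SGPL1, which splits it for good. S1P that leaves the cell acts on G protein-coupled receptors of neighbouring cells or of the same cell, which control cell contacts, migration and the barrier of blood vessels. SPNS2 is best known as the exporter of endothelial cells that supplies S1P to lymph, and its loss in mice affects lymphocyte traffic and hearing.

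RNA was taken at day 3 under regular maintenance from 2 lines, WT ARPE-19 and POLDIP2 KO, with 3 biological replicates each. The POLDIP2 KO line received SpCas9 and an sgRNA against POLDIP2 from a lentivirus and was expanded after puromycin selection, with no cloning step described. No vector control is described for WT, so the vector, Cas9, selection and loss of POLDIP2 cannot be told apart in the comparison. Nothing in the labels says whether the replicates were separate cultures on separate days, and p values measure the spread between these libraries only. The reads assigned to genes, recovered from the deposited values, numbered 31532797 to 45795509 per library, which is not the full sequencing depth. POLDIP2 itself had 3919, 4827 and 4798 normalised counts in the 3 WT libraries (replicates 1 to 3) and 1063, 1248 and 1143 in POLDIP2 KO, so every library followed its label.

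The epithelial keratins KRT8 and KRT18 and the pigment cell regulator MITF were abundant in both lines, but the RPE markers RPE65 and TTR had 0 reads in every library and TYR had at most 3. The 10 RPE markers together had 71116 to 81744 normalised counts in WT and 66785 to 88897 in POLDIP2 KO, of which KRT8 and KRT18 made up 93.1% to 94.8%. The other 8 markers summed to 4221 to 4672 in WT and 3556 to 5299 in POLDIP2 KO. Most of this was MITF, with 4401, 3463 and 3629 in WT and 4217, 2955 and 4503 in POLDIP2 KO (replicates 1 to 3). BEST1 differed by 0.78 on the log2 scale (95% interval -1.15 to 2.71), RLBP1 by -0.64 and PMEL by -0.43, and all 3 overlapped between the lines. SERPINF1, a factor secreted by the RPE, had 103, 168 and 108 in WT and 101, 74.1 and 49.6 in POLDIP2 KO, with no overlap and a difference of -0.77 on the log2 scale (95% interval -1.58 to 0.05, limma adjusted p = 0.822). Its part in the results was not tested. The 6 endothelial markers summed to 39.7 to 201 in WT and 46.7 to 149 in POLDIP2 KO, and the endothelial genes CDH5 and CLDN5 had at most 1 read in any library. Only 2 of the 6 passed the limit on low values. Of these 2, KDR, an endothelial receptor for VEGF, had the smaller p value and the higher level per kb, with a log2 fold change of 0.04 (interval -1.97 to 2.05). The 5 leukocyte markers summed to 29.3 to 57.2 in WT and 29.3 to 36.7 in POLDIP2 KO, with 0 reads of CD3E. Of these 5, only 2 passed the limit. The integrin ITGAM had the smaller p value, with -0.86 (interval -2.98 to 1.25), and the lysozyme gene LYZ the higher level per kb, with -0.36 (interval -1.35 to 0.62).

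SPNS2 (ENSG00000183018) lies on chromosome 17 between 4498881 and 4539035 (GRCh38, plus strand). Its normalised counts, listed here and throughout in the order of replicates 1, 2 and 3, were 15505, 19645 and 12936 in WT. POLDIP2 KO libraries had 5219, 4407 and 4388. The lowest WT library was well above the highest POLDIP2 KO library, and the libraries of POLDIP2 KO lay closer together than those of WT. The mean was 16029 ± 3385 in WT and 4671 ± 474 in POLDIP2 KO (± SD, n = 3 libraries each), so that 29.1% of the WT level was present in POLDIP2 KO. These values rest on at least 4242 reads per library, for which counting error alone is at most 1.54%. As a bulk measurement, they cannot tell fewer cells that express SPNS2 from less SPNS2 RNA in each cell.

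The fit placed SPNS2 at -1.76 on the log2 scale (standard error 0.168), and the 95% confidence interval ran from -2.16 to -1.36. Between libraries of the same replicate number the log2 difference was -1.57, -2.16 and -1.56 for replicates 1, 2 and 3. Since the lines do not overlap, any pairing must give this direction, so it adds no support. The widest of these differences belonged to replicate 2, where WT was highest. With any single library removed, the fitted value stayed between -1.91 and -1.60. The adjusted p value of SPNS2 in limma, printed only to describe how the fit ranks it, was 0.0231 with all libraries and 0.0541 to 0.14 with any of the 6 libraries left out, which is above 0.05 each time. In the same 6 fits the adjusted p value of POLDIP2 in limma was 0.0202 to 0.0886, and POLDIP2 was called in 2 of them.

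**Figure D1:**
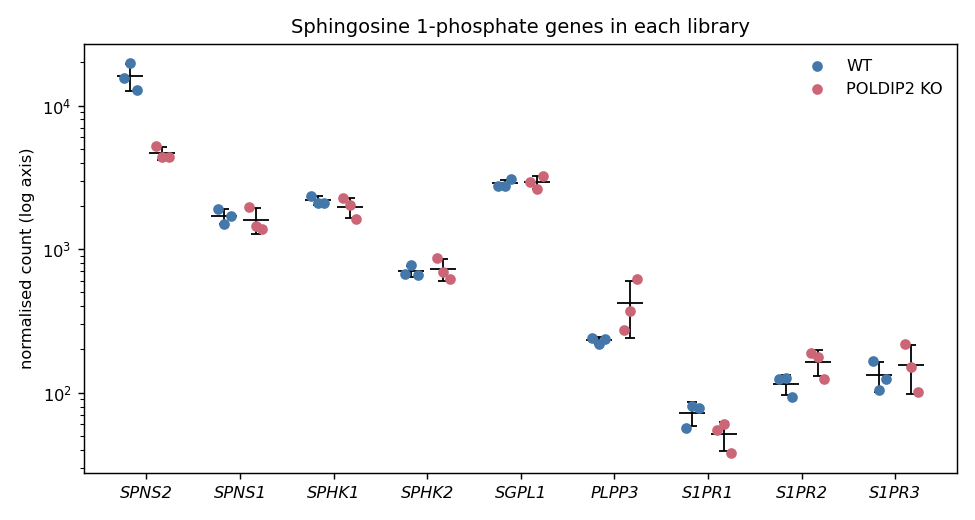
Normalised counts on a log axis of the 9 genes analysed, with 3 WT libraries (blue) and 3 POLDIP2 KO libraries (red) per gene in the order of replicates 1, 2 and 3, and black bars for the mean and SD. SPNS2 had the most normalised counts of these genes in both lines, at 12936 to 19645 in WT and 4388 to 5219 in POLDIP2 KO, while the 2 lines overlapped for every gene other than SPNS2 and PLPP3.

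In levels per kb of transcript, which allow genes to be compared, SPNS2 was first of the 9 genes in WT, with 4709 ± 994 normalised counts per kb. SPHK1 followed with 1203 ± 80.6, SPNS1 with 772 ± 90.8, SGPL1 with 496 ± 31.5, SPHK2 with 255 ± 23.1 and PLPP3 with 70.8 ± 3.69 (each ± SD, n = 3 libraries). The receptors were the lowest and could not be ordered among themselves, with 31.5 ± 4.95 for S1PR2, 30.5 ± 7.27 for S1PR3 and 25.9 ± 4.83 for S1PR1. Of 13799 tested genes with an annotated length, SPNS2 ranked 425 by its WT mean per kb and 1806 by its POLDIP2 KO mean. It stayed above SPHK1 in POLDIP2 KO, at 1372 ± 139 against 1082 ± 177 normalised counts per kb. SPNS2 gave 61.6% to 71.9% of the summed normalised counts of the 9 genes in WT libraries and 36.1% to 37.3% in POLDIP2 KO libraries, without correction for length.

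SPNS1 (chromosome 16, 28974221 to 28984548) encodes the lysosomal relative of SPNS2, which exports lysophospholipids from the lysosome. Its normalised counts were 1905, 1504 and 1697 in WT and 1966, 1449 and 1388 in POLDIP2 KO for the same order. The lines overlapped, with a difference of -0.10 on the log2 scale and a 95% confidence interval of -0.49 to 0.30 (limma adjusted p = 0.9998). Among SPNS1, SPNS2 and SPNS3 taken per kb, SPNS2 made up 82.3% to 88.5% in WT and 62.7% to 66.6% in POLDIP2 KO.

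Both kinases that make S1P overlapped between the lines. SPHK1 (chromosome 17, 76376584 to 76387860) had 2354, 2094 and 2108 normalised counts in WT and 2255, 2020 and 1619 in POLDIP2 KO. Its log2 fold change was -0.16 (interval -0.51 to 0.18, limma adjusted p = 0.9998), with a lower value in POLDIP2 KO in all 3 same-numbered pairs. Here and below, such agreement of pairs is only a description, as its share over all genes was not computed. SPHK2, the kinase found in the nucleus and mitochondria, had 674, 775 and 658 in WT and 862, 690 and 621 in POLDIP2 KO, with a log2 fold change of 0.04 (interval -0.35 to 0.42). SPHK1 supplied 80.4% to 84.1% of the kinase level per kb in WT and 79.8% to 81.6% in POLDIP2 KO.

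Among the breakdown enzymes, the lyase SGPL1 (chromosome 10, 70815905 to 70895816) had 2759, 2767 and 3078 normalised counts in WT and 2957, 2626 and 3240 in POLDIP2 KO. Its interval, from -0.24 to 0.30 around a log2 fold change of 0.03, was the narrowest of the 9 genes. PLPP3 (chromosome 1, 56494761 to 56645301), a cell surface phosphatase that removes the phosphate of S1P and of lysophosphatidic acid, had 240, 218 and 237 in WT and 272, 369 and 624 in POLDIP2 KO. All POLDIP2 KO libraries lay above all WT libraries, but they were spread widely, at 421 ± 182 against 232 ± 12.1 (mean ± SD, n = 3 libraries each). PLPP3 differed by 0.78 on the log2 scale (standard error 0.3, interval 0.07 to 1.48), with an unadjusted p value of 0.0358 and an adjusted p value of 0.698 in limma, so it did not pass. Without POLDIP2 KO replicate 3 its log2 fold change was 0.45.

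The 3 receptors of the list had few reads. S1PR1 (chromosome 1, 101236865 to 101243713), the receptor that signals through Gi proteins, had 56.7, 81.3 and 78.3 normalised counts in WT and 55.4, 60.2 and 37.7 in POLDIP2 KO. These come from 38 to 81 reads, for which counting error alone is 11.1% to 16.2%. The lines overlapped, at -0.50 on the log2 scale (interval -1.23 to 0.24, limma adjusted p = 0.983). S1PR2 and S1PR3 can also signal through Gq and G12/13 proteins. S1PR2 (chromosome 19, 10221433 to 10231331) had 124, 126 and 94.0 in WT and 189, 177 and 125 in POLDIP2 KO. It was higher in POLDIP2 KO in all 3 same-numbered pairs although the lines overlapped, and its log2 fold change was 0.50 (interval -0.09 to 1.09, limma adjusted p = 0.887). S1PR3 (chromosome 9, 88990863 to 89005155) had 166, 104 and 125 in WT and 218, 151 and 101 in POLDIP2 KO, with a log2 fold change of 0.21 (interval -0.58 to 0.99).

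S1PR5, from the wider list, was the most abundant of the measured S1P receptors per kb, at 80.2 ± 8.66 normalised counts per kb in WT and 90.0 ± 15.9 in POLDIP2 KO (± SD, n = 3 libraries each). It made up 47.6% ± 2.51 of the receptor level per kb in WT and 47.9% ± 9.40 in POLDIP2 KO. The share of S1PR1 was 11.9%, 16.5% and 18.1% in WT and 10.2%, 10.3% and 8.37% in POLDIP2 KO, so the lines did not overlap in this share. The share of S1PR2 did not overlap either, in the other direction, at 19.9%, 19.5% and 16.6% in WT and 26.5%, 23.1% and 21.2% in POLDIP2 KO. Both shares are parts of the same receptor total, so a higher share of S1PR2 lowers the others and they are not separate results. In their own normalised counts, S1PR1 and S1PR2 each overlapped between the lines. For 10.9% of all tested genes the lines did not overlap in normalised counts. The shares were not tested. S1PR4 had at most 7 reads in any library.

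**Figure D2:**
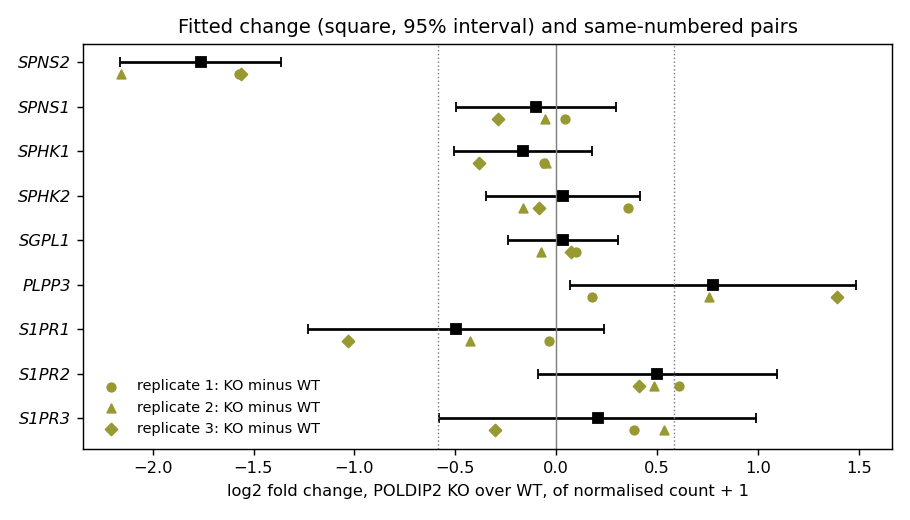
Log2 fold change of POLDIP2 KO over WT for the 9 genes analysed, as the fitted value with its 95% confidence interval (black squares and bars) and as the difference within each same-numbered pair (olive symbols below); dotted lines mark a 1.5-fold change. SPNS2 lies at -1.76 beyond the dotted lines, and the intervals of SPNS1, SPHK1, SPHK2 and SGPL1 lie inside them.

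Of the 9 genes analysed, 1 was past both thresholds in limma (adjusted p value below 0.05, change of more than 1.5-fold), and this was SPNS2, for which the list was chosen. Over all tested genes the share called was 0.17% (25 genes). For 1 of the 8 genes other than SPNS2, namely PLPP3, the POLDIP2 KO libraries all lay on 1 side of the WT libraries, against 10.9% of all tested genes. The same held for SPNS2, which was chosen for its difference and is not set against this share. DESeq2 on reads recovered from the deposited values, which was added once the data had been seen, also called SPNS2. For the same reason, this call is not set against the 1.66% of its tested genes that DESeq2 called. None of the other 8 was called by limma, edgeR or DESeq2, and 1 of the 8, PLPP3, had an unadjusted limma p value under 0.05, as did 6.48% of all tested genes. The median log2 fold change of the 8 was 0.03, against -0.00029 over all tested genes. For 4 of the 8, SPNS1, SPHK1, SPHK2 and SGPL1, the whole interval lay within a 1.5-fold change in either direction, while PLPP3 and the 3 receptors had intervals that reach beyond it on at least 1 side.

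SPNS2 has a relative beside it on the chromosome. SPNS3 (ENSG00000182557), a paralogue whose substrate is less well known, lies on the same strand from 4433940 to 4488208 and ends 10672 bases before SPNS2 starts. It had 137, 128 and 85.6 normalised counts in WT and 38.1, 52.1 and 32.8 in POLDIP2 KO. The lines did not overlap, at 117 ± 27.5 against 41.0 ± 9.98 (mean ± SD, n = 3 libraries each), so POLDIP2 KO was lower in any pairing. SPNS3 differed by -1.49 on the log2 scale (standard error 0.315, interval -2.23 to -0.74). Its adjusted p value was 0.215 in limma, and other limma settings that kept all libraries gave 0.115 to 0.302. On recovered reads, DESeq2 gave SPNS3 an adjusted p value of 0.00829 and edgeR gave 0.274. Its POLDIP2 KO values rest on 31, 64 and 33 reads.

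SPNS3 was far less abundant than SPNS2, at 0.883%, 0.654% and 0.662% of the SPNS2 normalised count in WT and 0.731%, 1.18% and 0.747% in POLDIP2 KO. Transcripts annotated to SPNS2 and SPNS3 share 0 sequences of 31 bases, the length commonly used to assign reads in Salmon, and 0 are shared between SPNS2 and SPNS1. The last 139 bases of SPNS2 overlap MYBBP1A on the opposite strand, with 109 sequences of 31 bases in common on opposite strands. The libraries are stranded, but whether the counting used the strand is not given in the sources used here. SPNS2-AS1, which overlaps SPNS2 by 794 bases, was not analysed here.

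Among the 5 nearest tested genes on each side of SPNS2, SPNS3 had the widest difference between the lines. The other 9 had log2 fold changes from -0.27 for GGT6 to 0.35 for MYBBP1A, all within a 1.5-fold change. Some intervals reach beyond it, such as that of GGT6 (-1.51 to 0.97). MYBBP1A, a nucleolar protein gene, had 1717, 2046 and 2495 normalised counts in WT and 2272, 3071 and 2620 in POLDIP2 KO, and the lines overlapped. ZZEF1, the farthest of the genes before SPNS2, had all 3 POLDIP2 KO libraries below the lowest of WT, with a log2 fold change of -0.22 (interval -0.47 to 0.03). CYB5D2, ANKFY1, UBE2G1, PELP1, ARRB2 and MED11 overlapped between the lines, with log2 fold changes from -0.13 to 0.09. None of the 10 neighbours was called by limma, 1 had an unadjusted p value under 0.05, and DESeq2 called SPNS3. Over all genes tested these shares were 0.17%, 6.48% and 1.66%. None of the 10 was called by edgeR on recovered reads, which called 9 higher and 8 lower over all genes. For 2 of the 10, SPNS3 and ZZEF1, the lines did not overlap, against 10.9% of all tested genes. POLDIP2 lies on the same chromosome but 23807597 bases beyond the end of SPNS2.

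**Figure D3:**
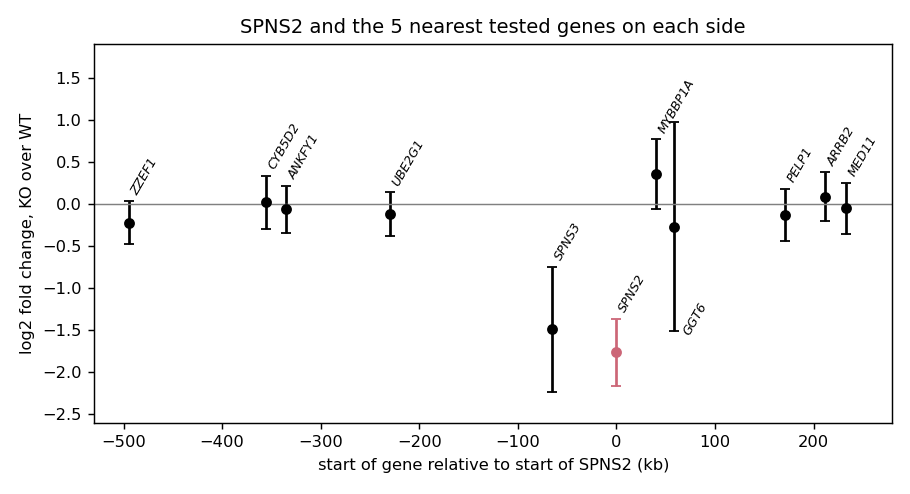
Log2 fold change of POLDIP2 KO over WT with its 95% confidence interval for SPNS2 (red) and the 5 nearest tested genes on each side (black), plotted by the distance in kb between gene starts. SPNS2 at -1.76 and SPNS3 at -1.49 stand below the other 9 genes, which lie between -0.27 and 0.35.

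Beyond S1P itself, 49 genes of sphingolipid metabolism were listed by function, of which 43 were tested. None was called by limma, edgeR called none, and 3 had an unadjusted limma p value under 0.05, namely SPNS3, PLPP1 and GALC. Over all tested genes this share was 6.48%, so 3 of 43 is near the background. DESeq2 on recovered reads called 1, SPNS3, against 1.66% of the genes it tested, and limma called 0.17% of all tested genes. Of the 43, 23 had a log2 fold change above 0 and 20 below, and the median was 0.0049. The fitted values of 41 lay within a 1.5-fold change, whatever their intervals. The exceptions were SPNS3 and SAMD8, a ceramide phosphoethanolamine synthase, with 87.9, 761 and 347 normalised counts in WT and 55.4, 309 and 219 in POLDIP2 KO. SAMD8 overlapped between the lines, with a log2 fold change of -0.87 (interval -3.00 to 1.26), but was lower in POLDIP2 KO in all 3 same-numbered pairs (-0.66, -1.30 and -0.66). The replicate block narrowed the interval to -1.37 to -0.37, with an adjusted p value of 0.195 in limma and 0.0448 in DESeq2, which called 2.53% of all its tested genes under the block.

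PLPP1, a phosphatase of the same family as PLPP3, had 530, 486 and 480 normalised counts in WT and 696, 615 and 634 in POLDIP2 KO. Its POLDIP2 KO libraries lay above all WT libraries, with a log2 fold change of 0.38 (interval 0.08 to 0.68, limma adjusted p = 0.577). ALDH3A2, which oxidises the aldehyde that SGPL1 releases, was the most abundant of the other S1P genes per kb and had a log2 fold change of 0.32 (interval -0.61 to 1.25). MFSD2B, the S1P exporter of red blood cells and platelets, had 4 to 32 reads per library. The phosphatase SGPP2 had 2 to 14 reads and was not tested.

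In ceramide synthesis, 15 of 17 genes were tested and the fitted values of all 15 lay within a 1.5-fold change. The intervals of some, among them SPTLC3, reach beyond it. SPTLC3, a subunit of serine palmitoyltransferase, had the smallest p value, with a log2 fold change of 0.49 (interval -0.11 to 1.10), and CERS2, the ceramide synthase for very long chains, was the most abundant per kb, with 0.33 (interval -0.11 to 0.78). Of the ceramidases, which release sphingosine, the lysosomal ASAH1 was the most abundant per kb and had a log2 fold change of 0.18 (interval -0.44 to 0.80). Among the genes that use or move ceramide, UGCG, which makes glucosylceramide, was the most abundant per kb, with -0.09 (interval -0.36 to 0.17), and the sphingomyelin synthase SGMS2 had the smallest p value, with 0.26 (interval -0.13 to 0.64). Among the genes that release ceramide, the lysosomal galactosylceramidase GALC had a log2 fold change of 0.42 (interval 0.0081 to 0.83, limma adjusted p = 0.759), and PSAP, the precursor of the saposins, was the most abundant, with 0.12 (interval -0.29 to 0.53).

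**Figure D4:**
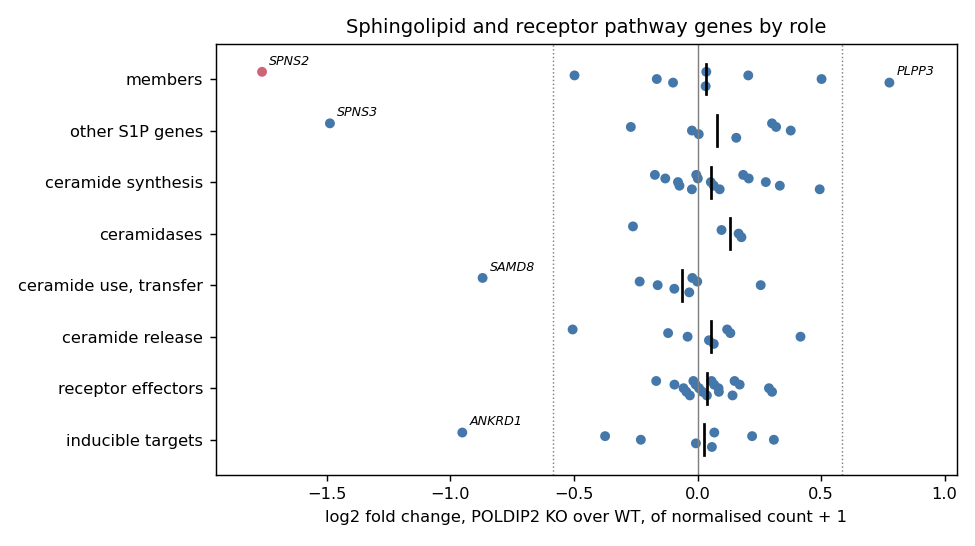
Log2 fold change of POLDIP2 KO over WT for each tested gene by role, with 1 point per gene, a black bar at the median of each list and dotted lines at a 1.5-fold change; the red point is the gene past both limma thresholds. SPNS2 at -1.76, SPNS3 at -1.49, ANKRD1 at -0.95, SAMD8 at -0.87 and PLPP3 at 0.78 lie outside the dotted lines, and 41 of the 43 wider sphingolipid genes lie inside them.

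The 19 genes of receptor signalling, among them G protein subunits, kinases and arrestins, were all tested. The fitted values of all 19 lay within a 1.5-fold change, while the intervals of some, among them GNAI2, reach beyond it. GNAI2, a Gi subunit, had the smallest p value, with a log2 fold change of 0.29 (interval -0.08 to 0.65), and RHOA, the small GTPase downstream of G12/13, was the most abundant per kb, with 0.07 (interval -0.33 to 0.47). The 8 genes that serum and S1P can induce included CCN1, the most abundant per kb, with a log2 fold change of -0.37 (interval -1.40 to 0.65). ANKRD1 had the smallest p value of the 8, with -0.95 (interval -2.37 to 0.47). Of the 8, 4 had a log2 fold change above 0 and 4 below. Their median was 0.026, against -0.00029 over all tested genes. Of these 27 genes, limma, edgeR and DESeq2 called none, and 0 had an unadjusted limma p value under 0.05. Over all genes tested, limma called 0.17% and DESeq2 1.66%, and 6.48% had an unadjusted limma p value under 0.05. With shares this low, no calls among 27 genes says little about them. Once replicate number entered DESeq2 as a block, ANKRD1 was called, with an adjusted p value of 0.000162. DESeq2 with the block called 2.53% of the genes it tested. In limma with the same block ANKRD1 had an adjusted p value of 0.165 and was not called.

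Several of these genes followed the replicate number. For 5 of the 8 inducible genes, replicate 1 was the highest library in both WT and POLDIP2 KO, against 22% of all tested genes. CCN2, which encodes a matrix-associated growth factor, had 19491, 11518 and 8131 normalised counts in WT and 28934, 10325 and 11615 in POLDIP2 KO. ANKRD1 had 16262, 7160 and 4951 in WT and 9692, 2440 and 3368 in POLDIP2 KO, so its POLDIP2 KO libraries were lower in each same-numbered pair while the lines overlapped. Among the 9 S1P genes, SPNS1, SPHK1 and S1PR3 were highest in replicate 1 of both lines. SPNS2 was highest in replicate 2 of WT and in replicate 1 of POLDIP2 KO.

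By Pearson correlation of log2(normalised count + 1) over the 6 libraries, the 5 tested genes whose pattern was most like that of SPNS2 were CNTN3, ARMCX2, ENSG00000277614, DCDC2 and SV2A, with r from 0.989 to 0.999. The 6 points are 2 groups of 3 libraries, so r mostly reflects the step between the lines, and 75 of 14683 genes had an r above 0.95. CNTN3, a neural cell adhesion gene, had 76, 166 and 43 reads in WT and 1, 0 and 0 in POLDIP2 KO. ENSG00000277614, for which no symbol or position was found in GENCODE release 44, had 140, 135 and 35 reads in WT and 0 in each POLDIP2 KO library. DCDC2, a gene of microtubule-binding proteins of the cilium, had 583, 676 and 383 normalised counts in WT and 170, 157 and 122 in POLDIP2 KO. ARMCX2 had 856, 1163 and 570 in WT and 279, 221 and 206 in POLDIP2 KO. SV2A, a synaptic vesicle protein gene, had a smaller difference, from 1167, 1142 and 959 to 651, 620 and 609. The r of SPNS3 with SPNS2 was 0.947, at rank 87.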

How the data were processed

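The deposited values are the signal of each gene in each library, made by the authors as gene counts divided by a size factor. Per the labels and the study's methods, Salmon 1.8 estimated transcript abundance, tximport gave counts per gene for GRCh38, and DESeq2 1.34.0 scaled them. The annotation release and strand setting are not given in the sources used here. All columns were used. Every value was a whole multiple (tolerance 0.001) of the smallest value above 0 in its column, taken as 1 read, which gave the reads.

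Limma 3.58.1 (R 4.3.3, eBayes with trend, prior degrees of freedom 3.02) was run on log2(normalised count + 1). Genes averaging below 10 were dropped, Benjamini-Hochberg adjustment covered the remaining 14684, and a call needed an adjusted p value below 0.05 with a change of more than 1.5-fold. Adding 1 understates the fold change of low genes. An exact permutation test of 3 against 3 libraries cannot go below 0.1, so none was used. Levels per kb used the canonical transcript of GENCODE release 44, which also gave positions; 34152 of 37902 identifiers matched a symbol. On simulated libraries of 14563 genes, of which 194 were changed, the fit recovered 85.8% of 2-fold and 95.5% of 4-fold changes, and 4.89% of its 184 calls were false. The simulated spread depended only on the level of a gene and held no replicate effect. These shares check the code and do not give the share of real changes that the fit can find in these libraries.

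The members and all gene lists were chosen with earlier results of these data known. Genes named were the 10 members and POLDIP2; in each wider list any gene past both thresholds, the gene with the smallest p value and the gene with the highest level per kb; the 5 tested genes on each side of SPNS2; and the 5 with the highest correlation with SPNS2. MFSD2B, PLPP1, SGPP2, S1PR4, S1PR5, CCN2, SAMD8, RPE65, TTR, TYR, MITF, BEST1, RLBP1, PMEL, KRT18, CDH5, CLDN5 and CD3E were named after their values were seen. To see whether replicate numbers pair the libraries, values centred within each line were correlated over 14684 genes: same-numbered libraries gave 0.315, 0.137 and 0.129, all above 0.1, so the number was used as a block in an alternative. Libraries with different numbers gave -0.259 to 0.147, the highest being WT replicate 3 with POLDIP2 KO replicate 2, above same-numbered pairs 2 and 3. Alternatives were a pseudocount of 0.5 or 5, a limit of 50 on the mean or none, libraries normalised by quantiles or recentred on their medians, robust eBayes, eBayes without trend, the replicate block and leaving out each library. The recovered reads were also tested with edgeR 4.0.16 and DESeq2 1.42.0, both added once the data had been seen.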

Additional observations from a re-analysis of the deposited data

How the results depend on the processing

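SPNS2 had a log2 fold change of -1.80 to -1.76 over the limma settings with all libraries and of -1.91 to -1.60 in the fits that leave out 1 library. Its adjusted p value was 0.0186 to 0.0521 with all libraries, the highest coming from eBayes without trend (log2 fold change -1.76), where 0 of the 9 S1P genes were past the thresholds. With any library left out it was 0.0541 to 0.14, and 0 of the 9 were past them. With the replicate number as a block (pairing of same-numbered libraries) SPNS2 had a log2 fold change of -1.76 and an adjusted p value of 0.0436, and 1 of the 9 genes was past the thresholds as before. In limma the block changed no call among the S1P, sphingolipid, receptor signalling and neighbouring genes.

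Over all genes, limma called 12 higher and 13 lower. In the fits that leave out 1 library these counts were 0 to 3 and 0 to 2. A mean of at least 50 gave 6 lower, edgeR on recovered reads gave 8 lower, DESeq2 gave 118 higher and 152 lower, and DESeq2 with the replicate block gave 183 higher and 211 lower; the cause was not tested. DESeq2 called 1 sphingolipid gene and 1 neighbour of SPNS2, in both cases SPNS3, against 1.66% of the genes it tested. With the replicate block it called 2 sphingolipid genes (SPNS3 and SAMD8), 1 receptor or target gene (ANKRD1) and 1 neighbour (SPNS3), against 2.53% of the genes it tested. SPHK2, SGPL1 and S1PR3, which were not called, changed sign in some fits with 1 library left out (lowest and highest log2 fold changes of -0.097 and 0.14, -0.040 and 0.11, and -0.064 and 0.48), and S1PR1 was limited by its 38 to 81 reads.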
